A study of Mus musculus with 10 samples.

Results

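Chromatin accessibility was examined at 9 genes that encode transcription factors of the ventral forebrain and of interneurons, namely Dlx1, Dlx2, Dlx5, Dlx6, Gsx2, Sp8, Sp9, Meis2 and Nkx2-1, out of 21911 protein-coding genes. A site, meaning a region made by merging the overlapping ATAC-seq peaks of 6 libraries, was assigned to a gene if it lay in the gene body or within 50 kb of it and if the nearest transcription start site (TSS) of a protein-coding transcript belonged to that gene. By this rule the 9 genes had 71 of 108367 sites. ATAC-seq, which marks open DNA by the insertion of Tn5 transposase, was done on primary C57BL/6 mouse neural stem and progenitor cells (NSPCs) from postnatal day 5 brains, with 2 libraries per state. Activated NSPCs were grown in medium with 2% B27, 20 ng/ml FGF2 and 20 ng/ml EGF. Quiescent NSPCs were kept for 4 days in the same base with 20 ng/ml FGF2 and 25 ng/ml BMP4 and without EGF, and reactivated NSPCs were returned from that medium to FGF2 and EGF for 9 to 12 days. H3K4me3, a histone mark of promoters, was profiled by ChIP-seq in 1 quiescent and 1 activated library. The cultures are mixtures of stem and progenitor cells grown outside the brain, and the labels do not say which brain region or how many animals each library came from.

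The Dlx genes encode homeodomain proteins that lie in the genome as convergently transcribed pairs, and they drive the differentiation and migration of GABAergic interneurons. Gsx2 acts upstream of them in progenitors of the lateral ganglionic eminence, whereas Sp8 and Sp9 are zinc finger factors of olfactory bulb and striatal neurons, and Meis2 is a homeodomain partner of Pax6 and Dlx proteins in neuroblasts of the subventricular zone. Nkx2-1 specifies progenitors of the medial ganglionic eminence, the source of many cortical interneurons.

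The sequences below are 300-base windows around the strongest summit of sites on which the results turn, read from GRCm38 on the plus strand. They are the site with the highest fold enrichment in any library for Meis2, Dlx2, Gsx2 and Nkx2-1, the 2 highest of Sp8, and the highest Meis2 site found in activated but not in quiescent NSPCs (Meis2 +44.4 kb). Among them are 2 sites that passed a test between states (Meis2 +125.2 kb and Sp8 -9.5 kb) and 1 that was found in reactivated NSPCs alone (Nkx2-1 -4.4 kb). Sites are named by the gene and the distance of the site's middle from the TSS, positive in the direction of transcription. Capitals mark exact matches, on either strand, to TAATTA (the core bound by many homeodomain proteins), CAGCTG (an E-box, bound by basic helix-loop-helix proteins), TTGGC (the core of NFI sites) or GGGCGG (the GC box bound by Sp factors). TAATTA and CAGCTG read the same on both strands, and the reverse complements GCCAA and CCGCCC count as matches of the others.
Meis2 +125.2 kb, chr2:115939253-115939552: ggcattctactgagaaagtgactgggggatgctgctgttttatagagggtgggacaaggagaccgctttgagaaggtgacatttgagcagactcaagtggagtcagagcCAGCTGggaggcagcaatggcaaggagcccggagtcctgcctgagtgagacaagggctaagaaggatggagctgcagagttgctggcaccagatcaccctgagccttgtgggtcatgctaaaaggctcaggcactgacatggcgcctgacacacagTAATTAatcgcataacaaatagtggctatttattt
Sp8 -9.5 kb, chr12:118836624-118836923: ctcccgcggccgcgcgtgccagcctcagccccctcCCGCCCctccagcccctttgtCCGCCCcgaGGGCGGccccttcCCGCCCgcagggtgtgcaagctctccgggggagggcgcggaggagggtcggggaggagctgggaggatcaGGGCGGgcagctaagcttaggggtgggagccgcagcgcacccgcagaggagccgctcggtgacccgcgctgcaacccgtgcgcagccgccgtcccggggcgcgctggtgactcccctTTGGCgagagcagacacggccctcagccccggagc
Sp8 +7.6 kb, chr12:118855150-118855449: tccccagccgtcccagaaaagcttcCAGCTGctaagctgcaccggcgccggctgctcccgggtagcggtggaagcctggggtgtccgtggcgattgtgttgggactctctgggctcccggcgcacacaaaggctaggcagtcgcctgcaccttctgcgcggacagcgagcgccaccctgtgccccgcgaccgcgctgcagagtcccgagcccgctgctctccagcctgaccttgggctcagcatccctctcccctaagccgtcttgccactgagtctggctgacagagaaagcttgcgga
Dlx2 -34.5 kb, chr2:71581025-71581324: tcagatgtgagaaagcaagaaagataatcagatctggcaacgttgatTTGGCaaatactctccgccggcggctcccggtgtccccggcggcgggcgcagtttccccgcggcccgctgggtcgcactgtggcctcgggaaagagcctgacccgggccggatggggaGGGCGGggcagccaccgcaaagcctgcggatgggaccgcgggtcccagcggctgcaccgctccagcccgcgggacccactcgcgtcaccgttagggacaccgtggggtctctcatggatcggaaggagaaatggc
Gsx2 -12.2 kb, chr5:75063209-75063508: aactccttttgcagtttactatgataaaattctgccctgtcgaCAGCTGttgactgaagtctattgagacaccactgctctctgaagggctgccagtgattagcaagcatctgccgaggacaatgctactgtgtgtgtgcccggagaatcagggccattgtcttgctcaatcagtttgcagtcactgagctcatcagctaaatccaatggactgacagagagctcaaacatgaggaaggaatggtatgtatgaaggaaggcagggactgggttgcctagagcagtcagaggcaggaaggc
Meis2 +44.4 kb, chr2:116019977-116020276: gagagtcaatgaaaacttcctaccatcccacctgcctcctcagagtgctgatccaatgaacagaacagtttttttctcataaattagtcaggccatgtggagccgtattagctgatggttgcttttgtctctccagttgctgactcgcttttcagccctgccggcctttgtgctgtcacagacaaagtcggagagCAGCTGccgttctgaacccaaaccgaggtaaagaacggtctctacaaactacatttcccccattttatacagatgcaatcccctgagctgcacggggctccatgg
Nkx2-1 -4.4 kb, chr12:56541126-56541425: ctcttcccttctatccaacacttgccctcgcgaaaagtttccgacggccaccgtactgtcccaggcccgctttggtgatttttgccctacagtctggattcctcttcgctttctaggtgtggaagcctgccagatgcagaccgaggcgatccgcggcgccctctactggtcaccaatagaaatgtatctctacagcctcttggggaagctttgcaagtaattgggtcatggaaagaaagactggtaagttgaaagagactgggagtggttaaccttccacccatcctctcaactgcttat

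The sequence of the Meis2 +125.2 kb window held 1 TAATTA and 1 CAGCTG, the Sp8 -9.5 kb window held 5 GC boxes and 1 TTGGC, and the Nkx2-1 -4.4 kb window held no match to any of the motifs. Over the 71 sites, TAATTA was found in 7 windows (9.86%) against 5.96% of all 108367 windows of the same length, and CAGCTG in 15 (21.1%) against 26.8%. TTGGC was found in 39 windows (54.9%), the same share as over all sites, and 0 of the 71 windows held the full palindromic NFI site, of which TTGGC is a part and which 0.125% of all windows held. GGGCGG was found in 23 windows (32.4%) against 18.3%. These are counts of letters, not of bound factors.

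The libraries differed in what they could show. The lists held 47323 to 60881 peaks in quiescent and activated NSPCs and 106586 and 107137 in reactivated NSPCs, and a peak was called from a pileup of at least 16 to 25 reads, or a fold enrichment of at least 1.99 to 2.42 over that library's general background. The background pileup was 12.1 in quiescent library 2 and 6.01 to 6.61 in the others. Over the 23116 sites with a peak in all 6 libraries, the median log2 fold enrichment ranged from 2.48 to 2.89 in quiescent and activated libraries and was 3.38 and 3.43 in the reactivated ones. The larger number of sites in reactivated NSPCs was therefore seen over the whole genome, and its part in the results at the 9 genes was not tested. The promoters of all 6 markers of neural stem and progenitor cells (Sox2, Nes, Vim, Fabp7, Notch1 and Nr2e1) had a peak in every library, and none of the 4 endothelial markers had one in any library. A library had a promoter peak at 3 to 4 of 5 neuronal markers (not at Dcx), 0 to 1 of 5 oligodendrocyte markers and 1 of 5 microglial markers (not at Csf1r, Aif1 or Ptprc). Of 5 astrocyte markers, 3 had one in both quiescent, 1 in both activated and 4 in both reactivated libraries (Gfap in none), and the part of other cell types in the results was not tested.

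At the 9 genes, the sites with a peak were fewest in quiescent and most in reactivated NSPCs. Of the 71 sites, 15 and 18 had a peak in the quiescent libraries, 27 and 21 in the activated libraries and 52 in each reactivated library. The means were 16.5 ± 2.12 (SD, n = 2) sites in quiescent, 24 ± 4.24 in activated and 52 ± 0 in reactivated NSPCs, and the libraries of different states did not overlap. Counted as single peaks, of which a site can hold several, quiescent and activated libraries did overlap, with 20 and 24 peaks in quiescent libraries, 30 and 22 in activated libraries, and 64 and 67 in the reactivated ones. An exact two-sided permutation test of 2 against 2 libraries gave p = 0.33 for each pair of states, the smallest value that it can give. The share of sites with a peak was 21.1% and 25.4% in the quiescent libraries at these genes, against 39.3% and 43.3% over all sites of the genome. In activated NSPCs it was 38% and 29.6% against 40.3% and 33.3%, and in reactivated NSPCs 73.2% in both against 74.5% and 75.1%. The share at these genes was thus farthest below that of the genome in the quiescent libraries.

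**Figure D1:**
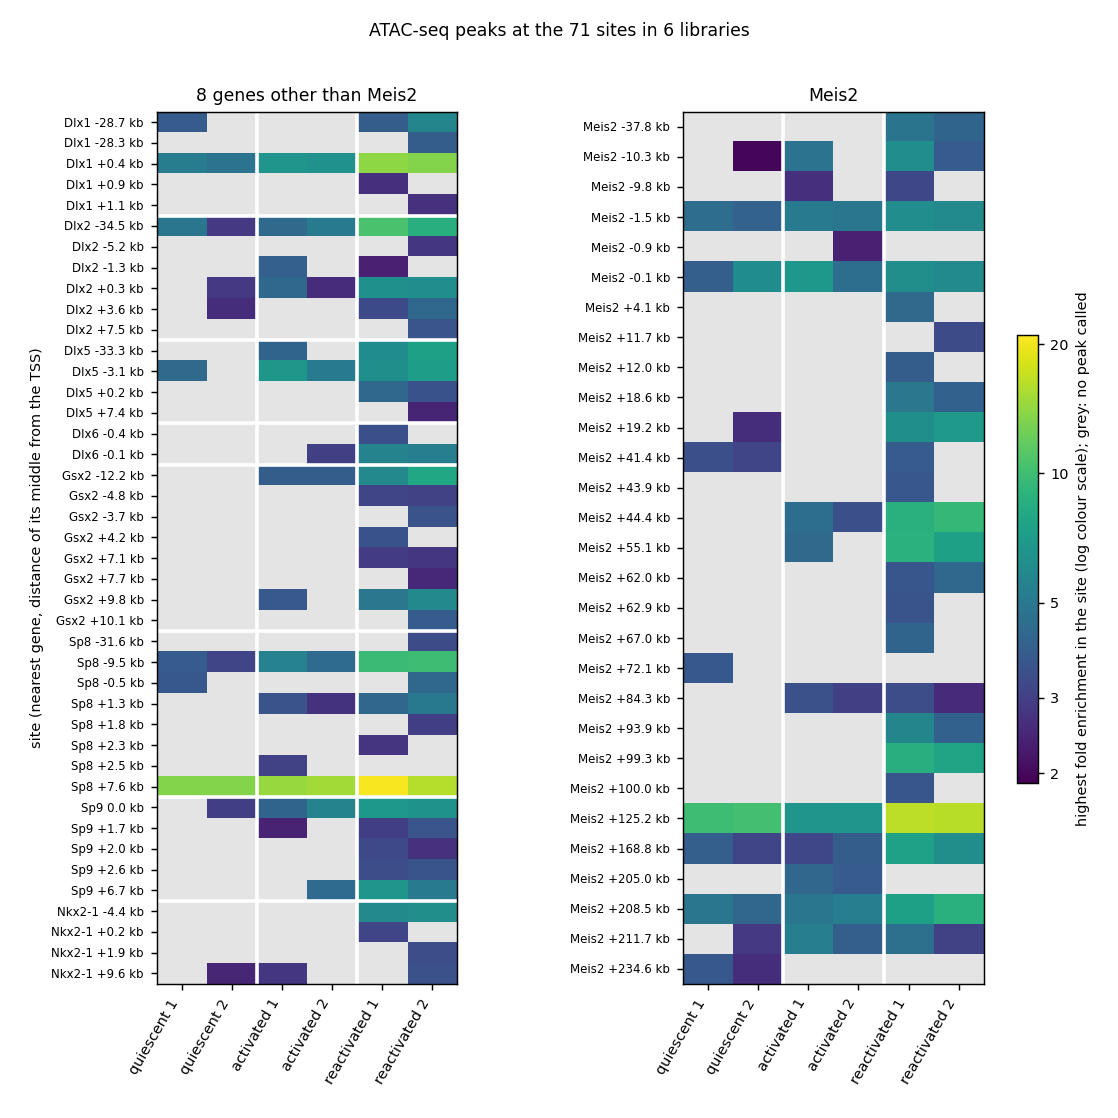
Highest fold enrichment of the ATAC-seq peaks in each of the 71 sites (rows, by gene and distance from the TSS) in 6 libraries (columns), on a log colour scale, with grey where no peak was called. The left panel holds the 42 sites of 8 genes and the right panel the 29 sites of Meis2; 9 rows are coloured throughout, and 34 are coloured in reactivated columns alone.

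Of the 71 sites, 15 were shared, that is, had a peak in at least 1 quiescent and 1 activated library, against 32% of all sites (21.1% of the 71). There were 2 quiescent-specific sites (both quiescent and no activated library; 6.26% of all sites) and 5 activated-specific sites (the reverse; 4.24% of all sites). Both reactivated libraries had a peak at 38 sites (61.1% of all sites). Of these, 11 had no peak in any other library (14.8% of all sites). That count was 2 with lists of equal length, and 26 and 22 without reactivated library 1 and 2, when a single reactivated peak sufficed. The quiescent-specific count was 4 and 5 without quiescent library 1 and 2, 1 with lists of equal length or a window of 25 kb, and 0 under a stricter limit of -log10 q of at least 10. The activated-specific count was likewise 8 and 12 without activated library 1 and 2, 8 without quiescent library 2, and 1 under that stricter limit. The shared count was 7 under the same limit and 10 without quiescent library 2. The 38 sites outside these classes had other patterns, and 26 of the 71 had a peak in 1 library only, against 31% of all sites. Without Meis2, which had the most sites, there were 8 shared, 0 quiescent-specific, 2 activated-specific and 6 reactivated-only sites among 42. By position, 12 sites were at promoters (within 1 kb of a TSS), 9 in exons, 21 in introns and 29 between genes.

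**Figure D2:**
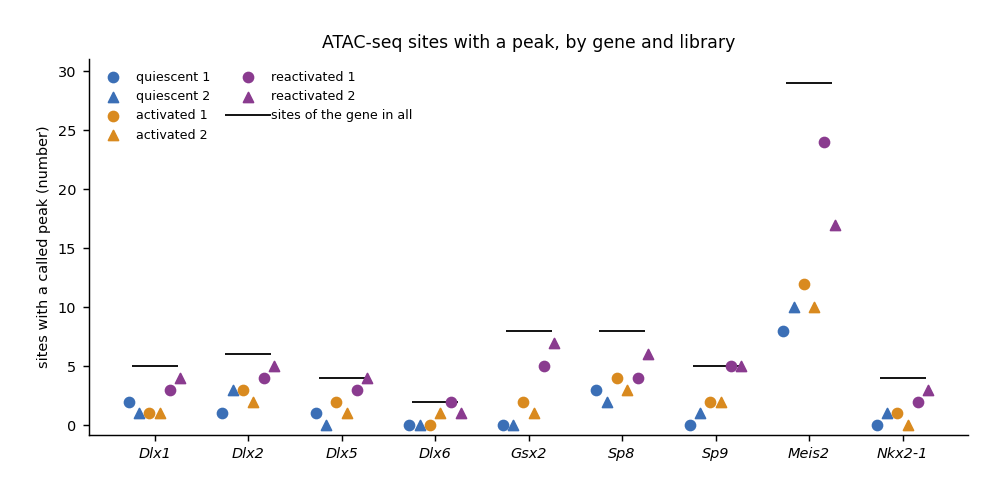
Number of sites with a called ATAC-seq peak for each gene (horizontal axis) in each library (circles, library 1; triangles, library 2), with a bar at the number of sites of the gene over all libraries. Meis2 had 29 sites and 8 to 24 of them in a library, and for Gsx2 both quiescent libraries are at 0.

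The Dlx1 and Dlx2 pair on chromosome 2 had the only Dlx promoter that was open throughout. The Dlx1 promoter site (+0.4 kb, chr2:71529065-71529887, which also overlaps the antisense gene Dlx1as) had a fold enrichment of 5.26 and 4.74 in the quiescent libraries, 6.66 and 6.42 in the activated libraries and 13.9 and 13.4 in the reactivated libraries. Each state was thus above the one before it in every library, before the libraries were put on a common scale. A second promoter site of Dlx1 (+0.9 kb) had a peak in reactivated library 1 only, at 2.66. The Dlx2 promoter site (+0.3 kb, chr2:71545890-71546991) had no peak in quiescent library 1 and was at 2.83 in quiescent library 2, at 4.23 and 2.57 in activated, and at 6.37 and 6.16 in reactivated libraries. Its pileup of 36 reads in quiescent library 2 stood on the deeper background of that library, and its 19 reads in activated library 2 were near the lowest pileup called there, 16. Of the 250 bases before the Dlx2 start in RefSeq (GRCm38.p6), shown here because this promoter had the highest H3K4me3 of the 9 genes in activated NSPCs, 1 match to GGGCGG and 1 to TTGGC are in capitals.
Dlx2 promoter, chr2:71546755-71547004, minus strand: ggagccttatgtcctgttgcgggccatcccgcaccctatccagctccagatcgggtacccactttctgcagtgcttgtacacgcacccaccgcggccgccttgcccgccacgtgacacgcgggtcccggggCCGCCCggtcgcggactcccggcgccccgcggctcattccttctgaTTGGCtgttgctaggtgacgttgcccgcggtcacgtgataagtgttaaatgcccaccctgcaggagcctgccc

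Among the distal sites of the pair, the strongest was upstream of Dlx2 (Dlx2 -34.5 kb, chr2:71581019-71581483, between genes). Enrichment there was 4.86 and 2.83 in the quiescent libraries, 4.38 and 5.13 in the activated libraries and 10.5 and 8.64 in the reactivated libraries. The values of quiescent and activated libraries overlapped, and both reactivated values were higher. It lay in an H3K4me3 region in both states, although no protein-coding TSS was within 1 kb. The 4 other Dlx2 sites had peaks in 1 to 3 libraries each and reached at most 4.28. Of the 4 other sites of Dlx1, Dlx1 -28.7 kb in an intron of Metap1d had peaks in 3 libraries, at 3.81 in quiescent library 1 and at 3.87 and 5.72 in the reactivated libraries.

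The Dlx5 and Dlx6 pair on chromosome 6 had no promoter peak in quiescent NSPCs. The Dlx5 promoter site (+0.2 kb, chr6:6881563-6882181) had peaks in the reactivated libraries alone, at 4.26 and 3.48. The Dlx6 promoter site (-0.1 kb, chr6:6863460-6863922, overlapping the antisense gene Dlx6os1) was at 2.99 in activated library 2, from a pileup of 20 reads, and at 5.56 and 5.31 in the reactivated libraries. A second promoter site of Dlx6, at -0.4 kb, had a peak in reactivated library 1 only, at 3.42. Upstream of Dlx5, on the side away from Dlx6, the Dlx5 -3.1 kb site (chr6:6884977-6885412) had the highest mean percentile among the peaks of the lists of any Dlx5 site (54.5), with a fold enrichment of 4.34 in quiescent library 1, no peak in quiescent library 2, 6.76 and 5.13 in activated, and 6.29 and 7.31 in reactivated libraries. In the activated and reactivated libraries its values overlapped. Dlx5 -33.3 kb, between genes, had no quiescent peak, 4.11 in activated library 1, and 6.14 and 7.45 in reactivated libraries, the last being the highest single value of Dlx5. Because the windows of paired genes overlap, a site was counted for the gene with the nearer TSS, and 23 sites in the windows of the 9 genes were nearer to a different gene.

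Gsx2 (chr5:75075601-75077893) had no promoter peak in any of the 6 libraries and no H3K4me3 region in either state. It had 8 sites, none of which had a peak in a quiescent library. The strongest, Gsx2 -12.2 kb (chr5:75063181-75063565, between genes), was activated-specific, with 3.85 in both activated libraries and 5.87 and 7.98 in the reactivated libraries, from pileups of 28, 26, 43 and 59 reads. A second site, Gsx2 +9.8 kb, had 3.71 in activated library 1 and 4.94 and 5.86 in the reactivated libraries. The other 6 sites had peaks in reactivated libraries only, between 2.5 and 3.81, and of these 2 had a peak in both. The absence of a called peak limits the pileup only to below what a call needed at that place. This rises with the local background and can exceed the lowest pileup called in the library. Under a stricter limit (-log10 q of at least 10) Gsx2 -12.2 kb kept its peaks in the reactivated libraries and lost both activated ones.

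Sp8 held the site with the highest fold enrichment of the 9 genes in every library but reactivated library 2, where Meis2 +125.2 kb was higher. Sp8 +7.6 kb (chr12:118854868-118855473, between genes and past the 3' end of Sp8) had a fold enrichment of 13.5 in both quiescent libraries, 14.5 and 15 in activated, and 20.6 and 16 in reactivated libraries, and was on average at percentile 98.5 of the peaks of a list. It overlapped an H3K4me3 region in both states, with a fold enrichment of 7.6 in quiescent and 6.4 in activated NSPCs, far below that of the Dlx1 and Dlx2 promoters (28.4 to 42.9). Sp8 -9.5 kb (chr12:118836470-118837142) was at 3.81 and 3.13 in the quiescent libraries, 5.53 and 4.42 in the activated libraries and 9.8 and 9.93 in the reactivated libraries, so that the 3 states did not overlap. The promoter of Sp8 was less open. The Sp8 -0.5 kb site had a peak in quiescent library 1 (3.68) and reactivated library 2 (4.26) only. The Sp8 +1.3 kb site, which reaches to within 1 kb of a TSS, was activated-specific. It had 3.51 and 2.71 in activated and 4.21 and 5 in reactivated libraries. The 18 reads of activated library 2 were close to the lowest pileup called there, 16.

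Sp9, in contrast, had its strongest site at the promoter (chr2:73271725-73272069). It had no peak in quiescent library 1 and was at 2.98 in quiescent library 2, 4.11 and 5.56 in activated, and 6.81 and 6.49 in reactivated libraries. Before the libraries were put on a common scale, those with a peak did not overlap between states and were in the order quiescent, activated, reactivated. With the medians of the activated and reactivated libraries set to a common level, the last step turned. Reactivated minus activated NSPCs was then -0.24 on a log2 scale (adjusted p = 0.514, limma). Sp9 +6.7 kb in its intron had a peak in activated library 2 (4.42) and in the reactivated libraries (6.69 and 5.13). The other 3 sites, in exons, were at 2.39 to 3.59 and had a peak in both reactivated libraries, with 1 of them also in activated library 1.

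Nkx2-1 had 4 sites, of which Nkx2-1 +9.6 kb alone had peaks in quiescent or activated NSPCs, at 2.45 in quiescent library 2 and 2.79 in activated library 1. Of the 9 genes, Dlx6 alone had fewer calls in these libraries. The strongest Nkx2-1 site, Nkx2-1 -4.4 kb (chr12:56541118-56541400, overlapping the noncoding gene Gm26973), had peaks in both reactivated libraries, at 5.87 and 6.25, and in no other. Under the stricter limit of -log10 q it kept both, and with lists of equal length only that of reactivated library 2. Meis2 +99.3 kb, also found in reactivated NSPCs alone, was at 8.54 and 7.71 and kept both peaks under either alternative. The Nkx2-1 promoter site (+0.2 kb) had a peak in reactivated library 1 only, at 3.14 from 23 reads. No H3K4me3 region was at the Nkx2-1 promoter in either state.

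Meis2, the longest of the genes (chr2:115863064-116065839, minus strand), had 29 sites, which put it at percentile 99.2 of all protein-coding genes, and 9.58 sites per 100 kb of its window against 1.9 (Dlx6) to 7.82 (Gsx2) at the others. The promoter site Meis2 -0.1 kb (chr2:116065570-116066225) was at 3.95 and 6.09 in the quiescent libraries, 6.82 and 4.53 in the activated libraries and 6.23 and 5.93 in the reactivated libraries, so that all states overlapped. A second promoter site, Meis2 -0.9 kb, had a peak in activated library 2 only (2.36). The strongest site, Meis2 +125.2 kb (chr2:115939006-115939575, in an intron), was the only one of the 71 with a peak in all 6 libraries at which both activated libraries were below both quiescent libraries. Enrichment there was 9.99 and 10.2 in the quiescent libraries, 6.63 and 6.7 in the activated libraries and 16.6 and 16.2 in the reactivated libraries.

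Meis2 also held the sites that separated quiescent from activated NSPCs in both directions. Meis2 +41.4 kb (chr2:116022985-116023171, intron) had peaks at 3.42 and 3.13 in quiescent libraries, none in activated, and 3.84 in reactivated library 1. Meis2 +234.6 kb (chr2:115829807-115830085, beyond the 3' end of the gene) was at 3.68 and 2.6 in quiescent libraries, from 27 and 33 reads, and had no other peak. These 2 were the quiescent-specific sites of all 9 genes. The activated-specific site Meis2 +44.4 kb (chr2:116019943-116020327, intron) was at 4.51 and 3.42 in activated and at 8.75 and 9.4 in reactivated libraries. Meis2 +84.3 kb (chr2:115980100-115980420, intron) was at 3.45 and 2.99 in activated and 3.34 and 2.53 in reactivated libraries. Meis2 +205.0 kb (chr2:115859386-115859687) was at 4.18 and 3.77 in activated libraries and had no reactivated peak. Of the 5 activated-specific sites of the 9 genes, 4 had a peak in both reactivated libraries (91.9% of the activated-specific sites of the genome did), and neither quiescent-specific site did. With lists of equal length, Meis2 +44.4 kb alone of the 5 kept both reactivated peaks. Under the stricter limit of -log10 q, both quiescent-specific sites lost every peak, and of the 5 activated-specific sites Meis2 +44.4 kb alone kept an activated peak, in library 1. The 1 site that then met the activated-specific rule was Dlx5 -3.1 kb, which had lost its quiescent peak.

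**Figure D3:**
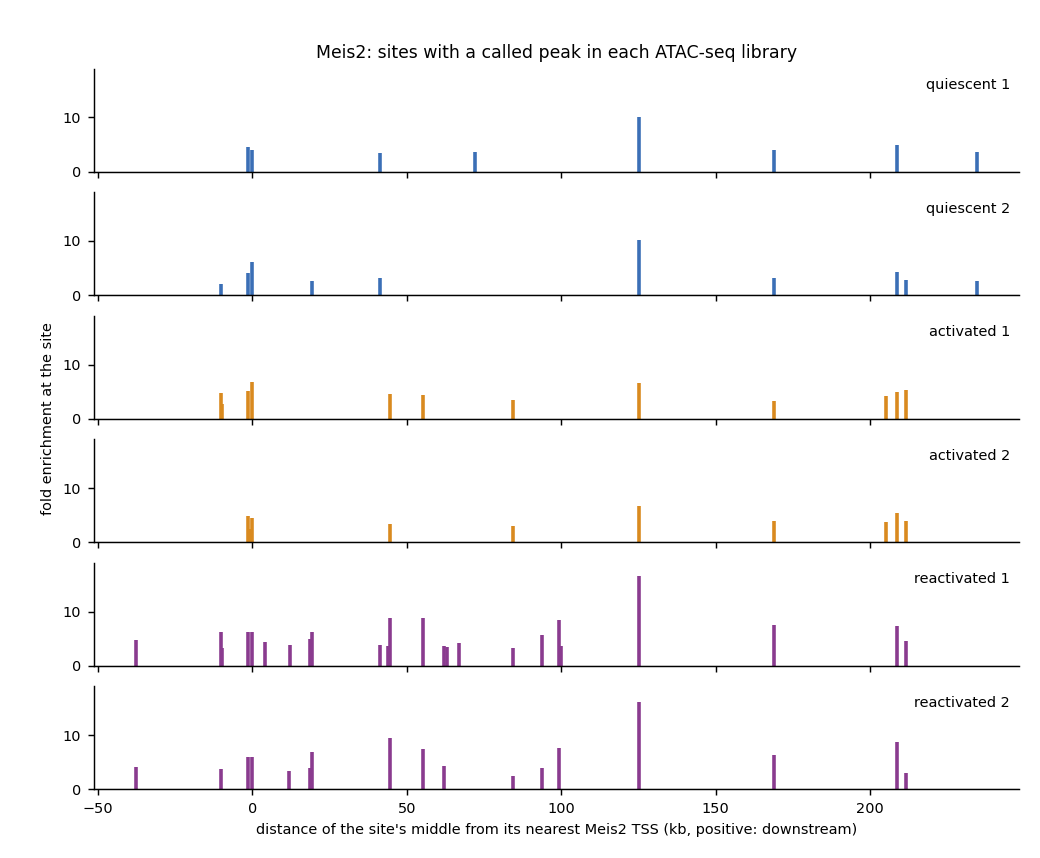
Fold enrichment (vertical axis) of the called ATAC-seq peaks at the Meis2 sites against the distance of the site's middle from its nearest Meis2 TSS in kb (horizontal axis, positive downstream), with 1 panel per library. The line at 125.2 kb is the tallest in every panel except activated library 1, where it reaches 6.63 and the promoter site 6.82; in the reactivated panels it reaches 16.6 and 16.2.

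The promoters were compared with H3K4me3 to ask whether a marked promoter was also called open. A peak within 1 kb of a TSS was present in both libraries at 2 of the 9 promoters in quiescent NSPCs (Dlx1 and Meis2), 4 in activated NSPCs (with Dlx2 and Sp9) and 7 in reactivated NSPCs (with Dlx5, Dlx6 and Sp8), against 54.4%, 54.8% and 63.9% of all protein-coding promoters. The step from quiescent to activated NSPCs was absent without quiescent library 1, when 4 promoters were open in the remaining quiescent library, and under the stricter limit of -log10 q, when 2 were open in both libraries of each of these states. For Sp8 the reactivated peaks were part of Sp8 +1.3 kb, at 3.04 and 5. The activated peaks of that site, at 3.51 and 2.71, lay more than 1 kb from a TSS and were not counted. With 2 kb around a TSS, 2 promoters had a peak in both quiescent, 5 in both activated and 8 in both reactivated libraries. An H3K4me3 region was at 6 of the 9 promoters in both states (Dlx1, Dlx2, Dlx5, Dlx6, Sp9 and Meis2), against 59.1% of all promoters. Of these 6, 2 had an ATAC-seq peak in both quiescent libraries, where 87.3% of the promoters with H3K4me3 in quiescent NSPCs did, and 2 (Dlx5 and Dlx6) had none in either, where 7.47% had none. Outside these genes, 8 pallial factors (regulators of the dorsal forebrain) had H3K4me3 in both states. Of these, 4 (Emx1, Neurog1, Neurog2 and Neurod1) had no ATAC-seq peak at the promoter in either quiescent library. Of 23 other regulators of the ventral forebrain and of interneurons (described below) with H3K4me3 in both states, 18 had a peak in both quiescent libraries. Lhx6, Npas1 and Isl1 had none in either, and the lists were not compared with a test. In activated NSPCs, 4 of the 6 marked promoters of the 9 genes had a peak in both libraries, against 89.4%. Dlx5 had none in either, against 6.01%. In reactivated NSPCs all 6 had a peak in both libraries. Thus 4 of the 6 gained the second or both library calls between quiescent and reactivated NSPCs, against 9.89% of promoters with H3K4me3 in both states. The reactivated lists were longer, and with lists of equal length 4 of the 9 promoters instead of 7 had a peak in both reactivated libraries (Dlx1, Dlx2, Sp9 and Meis2), 2 still had one in both quiescent libraries, and Dlx5 had lost both reactivated peaks.

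**Figure D4:**
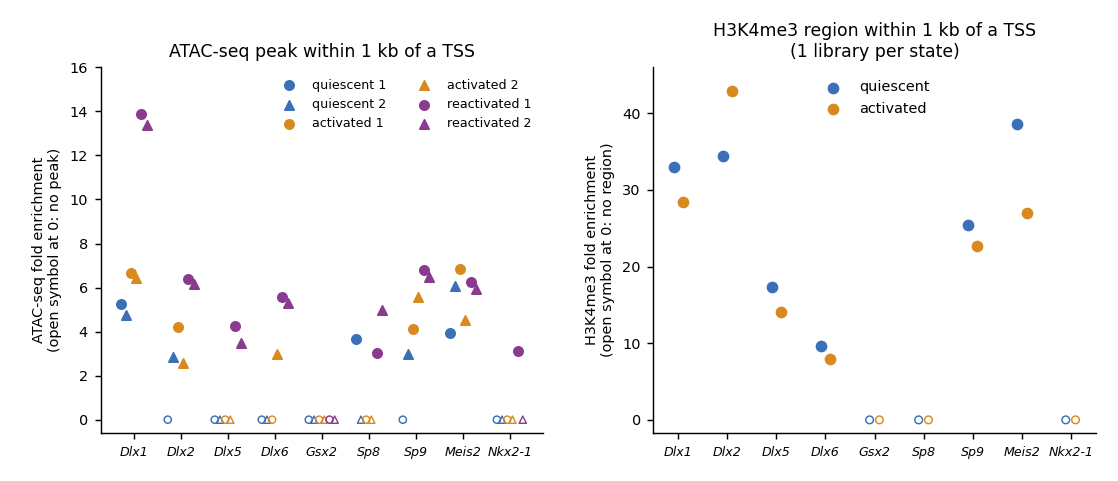
Left, fold enrichment of the ATAC-seq peak within 1 kb of a TSS for each gene in 6 libraries (filled symbols; open symbols at 0 where no peak was called); right, fold enrichment of the H3K4me3 region at the promoter in 1 quiescent and 1 activated library. Dlx5 and Dlx6 have H3K4me3 in both states and no ATAC-seq peak in quiescent libraries, and Gsx2 has neither.

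H3K4me3 regions present in both lists stayed within 1.5-fold between the states at the 9 genes. The fold enrichment was 33 in quiescent and 28.4 in activated NSPCs at the Dlx1 promoter, 34.4 and 42.9 at Dlx2, 17.3 and 14.1 at Dlx5, 9.59 and 7.91 at Dlx6, 25.4 and 22.7 at Sp9, and 38.6 and 27 at Meis2. Of 12 regions at the 9 genes, 10 were in both lists. Their ratio of activated to quiescent ranged from 0.701 (the Meis2 promoter) to 1.43 (Meis2 +208.4 kb), with a median of 0.852 against 0.927 over 15572 regions in both lists. None of the 10 passed a ratio of 1.5 in either direction, against 6.52% of all such regions that were lower and 1.39% that were higher in activated NSPCs. The other 2 regions, Dlx6 -2.5 kb (3.56) and Sp8 -9.4 kb (5.48), were in the quiescent list only, as were 8.95% of all regions. With 1 library per state these differences have no replicate check. The widths set Meis2 and Sp9 apart: the Meis2 promoter region was 12 kb wide in quiescent and 11.8 kb in activated NSPCs, with 8 and 7 wider regions in the lists of 17186 and 15980, and the Sp9 region was 6.74 and 6.61 kb wide, with 132 and 100 wider. The median widths were 1734 and 1708 bp.

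Fold enrichment could be compared with a test at the 9 sites that had a peak in all 6 libraries (21.3% of all sites had one). They belonged to Dlx1, Dlx2, Sp8 and Meis2, and selecting them leaves out the sites that were open in some states only. In 8 of the 9, both reactivated libraries were above the other 4 (72.8% of such sites in the genome), and the exception was the Meis2 promoter site. The values were therefore put on a log2 scale, the median of each library over 23116 sites was set to a common level, and the states were compared with limma with Benjamini-Hochberg adjustment over those sites. Below, a difference is on that scale.

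Between activated and quiescent NSPCs, 1 of the 9 sites passed an adjusted p of 0.05, and it was lower in activated NSPCs (11% of all tested sites passed, 5.29% lower and 5.76% higher). This was Meis2 +125.2 kb, with a log2 difference of -0.82 ± 0.18 (SE; adjusted p = 0.0121, limma), or 1.76-fold. It was also the only site with an unadjusted p under 0.05. The call did not hold without quiescent library 1 (-0.88, adjusted p = 0.0564), quiescent library 2 (-0.76, 0.0792) or activated library 1 (-0.67, 0.0713), without centring (-0.60, 0.0587), or with the mean of the site's peaks in place of the highest (-0.36, 0.324). The other 8 differences lay between -0.23 and 0.29, and their median with it was -0.04 against -0.07 over all sites.

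Between reactivated and activated NSPCs, the same site rose, by 0.65 ± 0.18 (adjusted p = 0.0309, limma; 1.57-fold), and it was the only one of the 9 called (16.6% of all tested sites passed, 6.62% higher and 9.95% lower). An unadjusted p under 0.05 was reached by 4 sites. Without centring, which leaves in the higher median of the reactivated libraries over all sites, 6 of the 9 passed the adjusted threshold. The share of all sites passing in that fit is not given here. The count is therefore not read as particular to these genes. Under the stricter limit of -log10 q, 2 sites passed, the second being the Dlx1 promoter site (0.53, adjusted p = 0.0344, limma). Fewer sites could be tested there, since Dlx2 -34.5 kb, Sp8 -9.5 kb and Meis2 +168.8 kb had lost a peak in some library. No share of all sites is given for that fit. Between reactivated and quiescent NSPCs Meis2 +125.2 kb differed by -0.17, with a 95% interval from -0.56 to 0.22, and without centring by 0.70 (adjusted p = 0.0057, limma). The call against activated NSPCs was lost without either activated library (adjusted p = 0.116 and 0.0523) and without either reactivated library (0.177 and 0.121), and with the mean of the site's peaks (0.20, adjusted p = 0.514). It was also lost when the 30762 sites with a peak in the 4 activated and reactivated libraries were fitted (0.59, adjusted p = 0.0646). In that fit, 2 of 17 sites of these genes were lower in reactivated NSPCs, Meis2 +211.7 kb (1.99-fold, adjusted p = 0.0335, limma) and Meis2 +84.3 kb (1.81-fold, adjusted p = 0.0339), and none was higher (12.5% of its sites passed, 8.82% lower and 3.67% higher). Before centring, Meis2 +211.7 kb was at 5.3 and 3.94 in activated and 4.61 and 3.05 in reactivated libraries, and Meis2 +84.3 kb at 3.45 and 2.99 and at 3.34 and 2.53, so that the states overlapped at both. Under the stricter limit Meis2 +84.3 kb kept no peak.

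Between reactivated and quiescent NSPCs, 2 of the 9 sites rose and none fell at an adjusted p under 0.05 (33.6% of all tested sites passed, 11.2% up and 22.5% down), and 4 had an unadjusted p under 0.05. Without centring, 7 of the 9 passed. The share of all sites is again not given for that fit, and this count is likewise not read as particular to these genes. Sp8 -9.5 kb rose by 0.64 ± 0.17 (adjusted p = 0.0147, limma; 1.56-fold) and the Dlx1 promoter site by 0.58 ± 0.17 (adjusted p = 0.0242; 1.49-fold). For both, activated NSPCs lay between: Sp8 -9.5 kb differed by 0.29 from quiescent and by 0.35 from reactivated NSPCs (adjusted p = 0.303 and 0.171), and the Dlx1 site by 0.17 and 0.41 (0.584 and 0.116), and none of these passed. The Sp8 call was lost without quiescent library 2 (0.55, adjusted p = 0.0802) and without either reactivated library (0.0966 and 0.0749), and under the stricter limit of -log10 q the site had no quiescent peak left and could not be tested. The Dlx1 call was lost when any of the 4 libraries compared was left out (adjusted p of 0.064 to 0.152), and with the mean of the site's peaks the Dlx1 difference turned to -0.24 (adjusted p = 0.369). The Meis2 promoter site (-0.56, 95% interval -1.07 to -0.06) and Sp8 +7.6 kb (-0.45, -0.88 to -0.02) were lower and missed the threshold (adjusted p = 0.0775 and 0.0994). The corresponding fits of 4 libraries gave the same counts for the other comparisons, with 1 of 9 sites lower in activated than in quiescent NSPCs (8.76% of its sites passed, 4.67% higher and 4.09% lower) and 2 of 9 higher in reactivated than in quiescent NSPCs (32.1%, 9.24% higher and 22.9% lower). The directions at Sp8 +7.6 kb and the Meis2 promoter site rest on the centring: without it, both were higher in reactivated NSPCs, by 0.43 and 0.31.

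**Figure D5:**
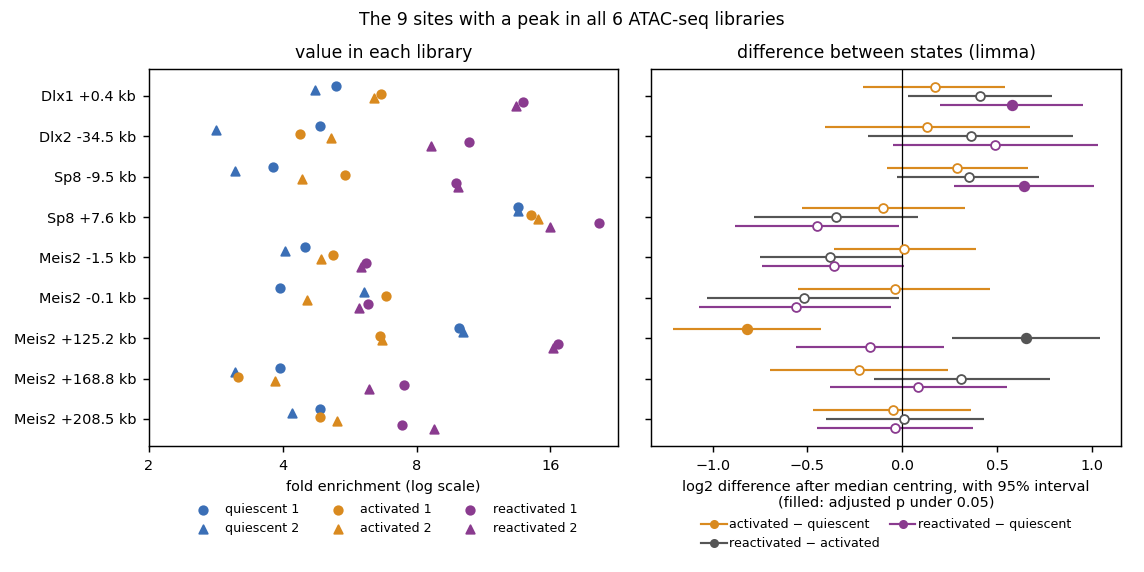
Left, fold enrichment on a log scale at the 9 sites with a peak in all 6 libraries, 1 point per library; right, the log2 difference between states after median centring with its 95% interval (limma, n = 2 libraries per state), filled where the adjusted p was under 0.05. At Meis2 +125.2 kb the activated libraries stand apart below the others, with a difference of -0.82 from quiescent NSPCs.

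Other regulators of the ventral forebrain and of interneurons were taken from a list of 24 genes, which was chosen with earlier results of these data known. Of their promoters, 18 had a peak in all 6 libraries, among them that of Gsx1, the paralog of Gsx2, against 2 of the 9 and 52% of all protein-coding promoters. An H3K4me3 region was at 23 of the 24 promoters in both states, against 59.1% of all promoters. Gsx1 differed from Gsx2 at the promoter, with a fold enrichment of 4.6 and 4.2 in the quiescent libraries, 8.32 and 9.18 in the activated libraries and 9.88 and 12.6 in the reactivated libraries, a rise of 0.77 ± 0.20 from quiescent to activated NSPCs (adjusted p = 0.0254, limma). Of the 53 sites of the list with a peak in all 6 libraries, 4 rose and 1 fell between quiescent and activated NSPCs (5.76% and 5.29% of all tested sites). Between activated and reactivated NSPCs 3 rose and 14 fell (6.62% and 9.95% of all), and between quiescent and reactivated NSPCs 5 rose and 19 fell (11.2% and 22.5% of all). Of their 305 sites, 25.6% were shared, 4.92% quiescent-specific and 7.54% activated-specific, beside 21.1%, 2.82% and 7.04% of the 71.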

How the data were processed

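ATAC-seq peak lists of 6 libraries and H3K4me3 lists of 2 libraries were used, and the input libraries were not used here. Per the submitters' processing notes and the study's methods, the authors trimmed reads with Trim Galore 0.4.0, aligned them to mm10 with Bowtie2 2.2.5, removed duplicates with Picard 1.88 and SAMtools 1.3.1, and used MACS to call peaks (FDR of 0.05). H3K4me3 regions were called in broad mode with a cutoff of 0.01. The fold enrichment that the authors deposited is a ratio of pileup to local background, not normalized between libraries. MACS also gave the −log10 p-value and q-value of each peak, which the authors deposited and which depend on the depth of the library. The methods give a shorter time in BMP4 for ATAC-seq than the labels, whose 4 days are used here. The study describes 2 biologically independent replicates per condition for quiescent and activated NSPCs and calls the reactivated libraries biological replicates.

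Peaks on autosomes, X and Y were merged into sites where they overlapped or abutted. A site takes the highest fold enrichment of its peaks in each library. TSSs are those of protein-coding transcripts in GENCODE M21, and the middle of a site set its nearest TSS. The 9 genes and all lists were chosen with earlier results of these data known. The named sites are, for each gene, its promoter sites (up to 3), its strongest site (by mean percentile of fold enrichment over the libraries), its quiescent-specific and activated-specific sites (up to 3 of each), and every site called in a fit of all 6 libraries. Other sites named (such as Meis2 +211.7 kb, Gsx2 +9.8 kb and Nkx2-1 +9.6 kb) were chosen after their values were seen. The study compared read counts, which are not used here, so limma 3.58.1 (R 4.3.3) was applied to log2 fold enrichment, with the states as groups, no covariate and no pseudocount, at sites with a peak in all 6 libraries. Pileups, printed as reads, were solved for from the MACS equations where −log10 p was at most 40, with a tolerance of 0.02%.

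Alternatives were stricter lists, lists of equal length, other merging, windows and TSSs, other scalings, a replicate block and the removal of each library. Sequences came from GRCm38.p6, whose chromosome lengths hold every site, and from RefSeq promoters, in which 7 of the 9 genes were found. Python 3.11.15, pandas 2.3.3 and scipy 1.17.1 were used.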

Additional observations from a re-analysis of the deposited data

How the results depend on the processing

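Depth limits what these lists can show: a site without a peak had a pileup below what a call needed there, which depends on the library and on the local background. With peaks of −log10 q of 10 and above, the 71-site classes held 7 shared, 0 quiescent-specific and 1 activated-specific sites. In that setting 2 promoters were open in both activated libraries. With fewer sites left to test, 2 and 1 sites were called for reactivated against activated and against quiescent NSPCs. With lists of equal length there were 1 quiescent-specific and 2 reactivated-only sites and 4 promoters open in both reactivated libraries. A window of 25 kb left 1 quiescent-specific site, and peaks that had to cover 50% of the site left 2 activated-specific sites. Without Meis2, an alternative chosen after seeing the data, there were 8 shared, 0 quiescent-specific, 2 activated-specific and 6 reactivated-only sites and 1 promoter open in both quiescent libraries. The cause of these changes was not tested, apart from the removal of sites by the alternative itself. Leaving out 1 library at a time gave 10 to 15 shared, 2 to 5 quiescent-specific, 5 to 12 activated-specific and 12 to 26 reactivated-only sites, and promoters open in 2 to 4 (quiescent), 4 to 5 (activated) and 7 to 8 (reactivated) cases, where a state left with 1 library counts as open from that library. The calls numbered 0 to 1, 0 to 1 and 0 to 2 for activated against quiescent, reactivated against activated and reactivated against quiescent NSPCs, with the spread then pooled over the states. Without centring the calls numbered 0, 6 and 7. With the mean of the site's peaks they numbered 0, 0 and 1. No share of all sites is given for either, and these counts are not read as particular to the genes. With the 4 libraries compared the calls numbered 2 for reactivated against activated NSPCs. With the replicate block they were 1, 1 and 2, as without it; same-numbered libraries did not deviate together (Pearson r of -0.00133, 0.0423 and -0.0173 across sites for the 3 pairs of states), so the numbers are not read as pairs. Of 210 alternative values for 18 differences at 6 sites, 167 kept direction and side of the threshold, 18 lost the call, 6 gained it and 19 changed sign. For activated against quiescent NSPCs, Sp8 +7.6 kb changed to 0.13 (not centred), 0.08 (quantile normalized) and 0.31 (mean of peaks), with -0.26 to 0.07 on leaving out libraries, and Meis2 -0.1 kb to 0.18 (not centred) and 0.0077 (strict limit), with -0.40 to 0.32. Dlx2 -34.5 kb ranged from -0.21 to 0.47 on leaving out libraries. For reactivated against activated NSPCs, Dlx1 +0.4 kb changed to -0.44 (mean of peaks), Sp8 +7.6 kb to 0.30 and Meis2 -0.1 kb to 0.13 (both not centred). For reactivated against quiescent NSPCs, Dlx1 +0.4 kb changed to -0.24 (mean of peaks), Sp8 +7.6 kb to 0.43 (not centred) and 0.18 (mean of peaks), Meis2 -0.1 kb to 0.31 (not centred) and Meis2 +125.2 kb to 0.70 (not centred) and 0.13 (quantile normalized). Over the alternatives that could be fitted the adjusted p ranged from 0.0108 to 0.324 for Meis2 +125.2 kb between activated and quiescent NSPCs and from 0.000493 to 0.514 between reactivated and activated NSPCs, from 7.85e-05 to 0.369 for Dlx1 +0.4 kb and from 9.75e-05 to 0.0966 for Sp8 -9.5 kb between reactivated and quiescent NSPCs, the latter without the strict limit, under which Sp8 -9.5 kb had no quiescent peak. For H3K4me3, 9 to 10 regions stayed in both lists and 0 passed the fold limit under each alternative.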

Other observations

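Pallial factors, the dorsal counterparts of these genes, are a list of 12 genes that was also chosen with earlier results known. Their promoters had a peak in both quiescent libraries at 4 genes (Pax6, Emx2, Lhx2 and Eomes), in both activated libraries at 7 and in both reactivated libraries at 9, against 54.4%, 54.8% and 63.9% of all protein-coding promoters, and Neurod2, Neurod6 and Fezf2 had none in any library. Of their 86 sites, 25.6% were shared, 3.49% quiescent-specific and 9.3% activated-specific, against 32%, 6.26% and 4.24% of all sites. At the 12 pallial sites with a peak in all 6 libraries, 0 passed an adjusted p of 0.05 in limma between quiescent and activated NSPCs (2 had an unadjusted p under 0.05). Between activated and reactivated NSPCs 3 rose and 1 fell (6.62% and 9.95% of all tested sites). Between quiescent and reactivated NSPCs 4 rose and 2 fell (11.2% and 22.5% of all). The 2 that fell were both of Emx2, at 0.0 kb (-0.63) and -0.9 kb (-0.59). Among those that rose was Lhx2 +0.2 kb, a site at a TSS of Lhx2, by 1.27 ± 0.31 (adjusted p = 0.0103, limma). Its fold enrichment went from 2.5 and 2.06 to 11.4 and 8.81. The Lhx2 promoter was already open in quiescent NSPCs, where its highest peak within 1 kb of a TSS was at 6.27 and 8.11, against 11.4 and 11.5 in reactivated NSPCs.

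Genes for products of interneurons are a list of 13. The promoters of Slc32a1, which encodes the vesicular GABA transporter, of Th and of Sst had no peak in any library, and those of Erbb4, Cxcr4, Ackr3 and Calb2 had a peak in all 6. The genes and the Lhx2 and Emx2 sites named here were picked out after their values were seen.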
